A study of Mus musculus with 12 samples.

Results

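The genes described here are those that present peptides on MHC class I, together with PD-L1, in lymphatic endothelial cells (LECs) of the mouse lung. They were taken by name, with earlier results of these data known: H2-K1, H2-D1, B2m, Tap1, Tap2, Tapbp, Psmb8, Psmb9, Nlrc5 and Cd274. All 10 were present among the 52636 gene identifiers of the count files, and all 10 passed the filter on low counts, which left 21440 genes.

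MHC class I shows fragments of the proteins made inside a cell to cytotoxic T cells. The proteasome cuts the proteins, the TAP transporter carries the peptides into the endoplasmic reticulum, tapasin holds TAP next to the empty class I molecule, and the loaded complex of heavy chain and beta-2 microglobulin moves to the cell surface. Interferon raises most of these genes together, and NLRC5 switches on the class I promoters. LECs are known to present antigen in lymph nodes, where PD-L1 on their surface restrains the T cells that recognise it.

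The LECs came from Prox1-EGFP mice, in which the Prox1 promoter drives a green fluorescent reporter that other Prox1-expressing cells also carry. Mice breathed cigarette smoke (CS) or room air (RA) for 8 weeks (acute) or for at least 24 weeks (chronic), and the acute mice are labelled with an age of 8 weeks and the chronic mice as aged. By the study's design exposure began in mice already some weeks old, so the label of 8 weeks cannot be their age at harvest. It equals the length of the acute exposure. Live cells were sorted as CD31 and EGFP positive and as negative for EpCAM and for a lineage cocktail against blood cells. There were 2 acute CS libraries (M and F), 2 acute RA libraries (M and F), 5 chronic CS libraries (M1 to M4 and F) and 3 chronic RA libraries (M1, M2 and F), where M and F give the sex. Each library was taken as a separate sample. By the study's methods each acute library pools the cells of several mice of 1 condition and a chronic library holds no pool, so the spread within the acute groups is between pools, and p-values measure only the spread between these libraries.

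Total counts per library ranged from 18821438 to 56998590. The lymphatic genes Prox1 and Flt4 were present in every library, at 1042 to 2476 CPM (read counts scaled to the library size with TMM factors) and 1159 to 4513 CPM. The 2 acute CS libraries stood apart in the marker lists of other cells. The summed level of the 8 leukocyte markers was 1627 and 2275 CPM there, against 126 to 133 CPM in acute RA, 107 to 190 CPM in chronic RA and 118 to 385 CPM in chronic CS. The 12 blood endothelial markers summed to 9393 and 10811 CPM in acute CS and to 4982 to 6196 CPM in all other libraries. The 8 lymphatic markers summed to 6190 and 9579 CPM in acute CS, 14284 and 16074 CPM in acute RA, 19495 to 22030 CPM in chronic RA and 14410 to 20715 CPM in chronic CS. The 10 alveolar epithelial markers ranged from 235 CPM in acute CS M to 8615 CPM in acute CS F.

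**Figure D1:**
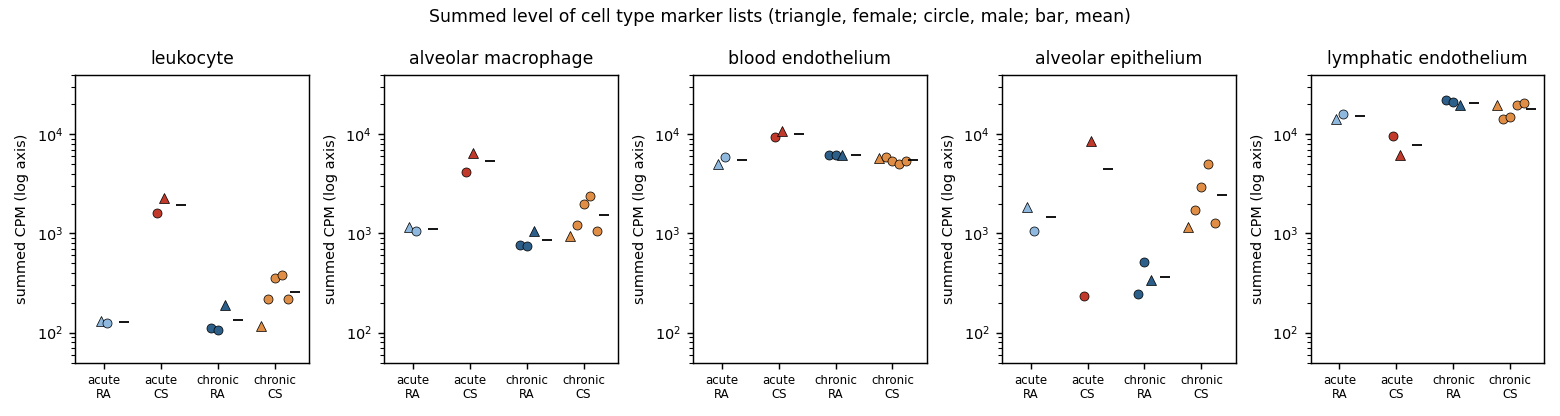
Summed CPM of 5 marker lists in each of the 12 libraries, on a log axis; triangles are female and circles male libraries, and the short bar is the group mean. The 2 acute CS libraries lie above all others for leukocytes, alveolar macrophages and blood endothelium and below all others for lymphatic endothelium.

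Several members lie side by side in the MHC region of chromosome 17 (GRCm38, GENCODE M21). Psmb9 (34181987 to 34187764, minus strand), Tap1 (34187553 to 34197225, plus strand), Psmb8 (34197721 to 34201454, plus strand) and Tap2 (34203527 to 34216321, plus strand) fill 34335 bases. Psmb9 and Tap1 are transcribed away from each other and their annotated spans share 212 bases, so reads in that overlap cannot be assigned to one of them without strand. Tapbp (33915899 to 33929292) and H2-K1 (33996017 to 34000347) lie nearby and H2-D1 (35262730 to 35267499) lies further along the same chromosome. B2m is on chromosome 2 (122147686 to 122153083), Nlrc5 on chromosome 8 (94434356 to 94527272) and Cd274 on chromosome 19 (29367455 to 29388095). Of the 50-base words in the transcripts of H2-K1 and H2-D1, 9.63% and 12.8% also occur in other genes, most often in H2-Q10 and H2-Q1, so their counts, made from uniquely mapped reads, may lack a part and are uncertain. For the other members that share was between 0% and 2.87%.

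Promoter sequences are shown for the heavy chain H2-K1, its partner B2m and Cd274, because the first and the second encode the chains of the class I molecule and the last one encodes PD-L1. They come from RefSeq (GRCm38.p6) and hold the 250 bases before the start of transcription. Windows were at hand for 8 of the 10 members, and not for Tap2 and Nlrc5. H2-K1 is chr17:34000348-34000597 (minus strand), B2m is chr2:122147437-122147686 (plus strand) and Cd274 is chr19:29367188-29367437 (plus strand). Capitals mark matches, on either strand, to AANNGAAA (the core of the interferon-stimulated response element), GGGNNTTCC (an NF-kB site), TTCNNNGAA (a gamma-activated site), TGACG (the core of the X2 box) and ATTGG (the Y box).
H2-K1: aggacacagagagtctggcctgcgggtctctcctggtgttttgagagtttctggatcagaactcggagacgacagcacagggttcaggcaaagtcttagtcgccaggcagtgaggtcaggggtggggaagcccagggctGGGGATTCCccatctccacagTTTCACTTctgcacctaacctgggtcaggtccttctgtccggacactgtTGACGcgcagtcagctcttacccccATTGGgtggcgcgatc
B2m: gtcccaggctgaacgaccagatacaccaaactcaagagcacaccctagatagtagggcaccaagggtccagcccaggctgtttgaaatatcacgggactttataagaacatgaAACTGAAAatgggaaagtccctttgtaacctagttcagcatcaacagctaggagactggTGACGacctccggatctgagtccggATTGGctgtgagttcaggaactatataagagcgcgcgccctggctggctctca
Cd274: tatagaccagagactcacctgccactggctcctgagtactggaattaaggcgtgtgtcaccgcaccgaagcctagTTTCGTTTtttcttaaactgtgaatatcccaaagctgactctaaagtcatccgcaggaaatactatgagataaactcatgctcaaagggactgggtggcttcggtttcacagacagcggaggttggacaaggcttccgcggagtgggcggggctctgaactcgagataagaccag

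H2-K1, H2-D1 and B2m, which together make the class I molecule, shared an arrangement of these letters. In each of the 3 promoters TGACG was followed by ATTGG after 20 bases. TGACG lay 41 bases before the start in H2-K1, 101 bases in H2-D1 and 78 bases in B2m. The X and Y boxes form the module through which NLRC5 is known to act. Over all 32851 promoter windows of 300 bases (250 before to 50 after the start), 0.743% held TGACG and ATTGG in this order with 10 to 30 bases between them. Neither Cd274 nor the windows of Tap1, Tapbp, Psmb8 and Psmb9 held the pair at that distance. The interferon element core was matched in H2-K1, H2-D1, B2m and Cd274, and in 23.9% of all windows. The NF-kB letters were matched in H2-K1 and H2-D1, and in 5.82% of all windows. Psmb8 alone among the 8 members held the gamma-activated site letters, which 8.30% of all windows held. TGACG by itself was found in 20.8% and ATTGG in 37.4% of all windows. These matches describe the letters in a short window and say nothing of binding.

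Levels per length (FPKM, with all exonic bases of a gene as its length) were highest for the chains of the class I molecule itself. B2m, the invariant light chain, stood at 2381 ± 489 FPKM (SD over all 12 libraries, which span the 4 groups), H2-D1 at 1656 ± 358 FPKM and H2-K1 at 639 ± 160 FPKM. Tapbp, which encodes tapasin, followed at 148 ± 27.2 FPKM and Tap2 at 49.6 ± 6.34 FPKM. Psmb9 stood at 26.1 ± 6.55 FPKM, Psmb8 at 23.9 ± 4.89 FPKM and Tap1 at 18.6 ± 8.72 FPKM. Cd274 (9.25 ± 4.0 FPKM) and Nlrc5 (4.77 ± 1.92 FPKM) closed the order. From B2m down to Psmb9 each gene exceeded the next in 12 of 12 libraries. The order of Psmb9 and Psmb8 held in 10 of 12 libraries and turned in all 12 when the longest transcript was used as the length (33.1 and 42.4 FPKM), so these 2 genes cannot be ordered. Psmb8 exceeded Tap1 in 11 of 12 libraries and Cd274 exceeded Nlrc5 in 11 of 12. The 2 chains of the TAP transporter were thus unequal, with Tap2 mRNA above Tap1 mRNA per length in the group means of all 4 groups.

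**Figure D2:**
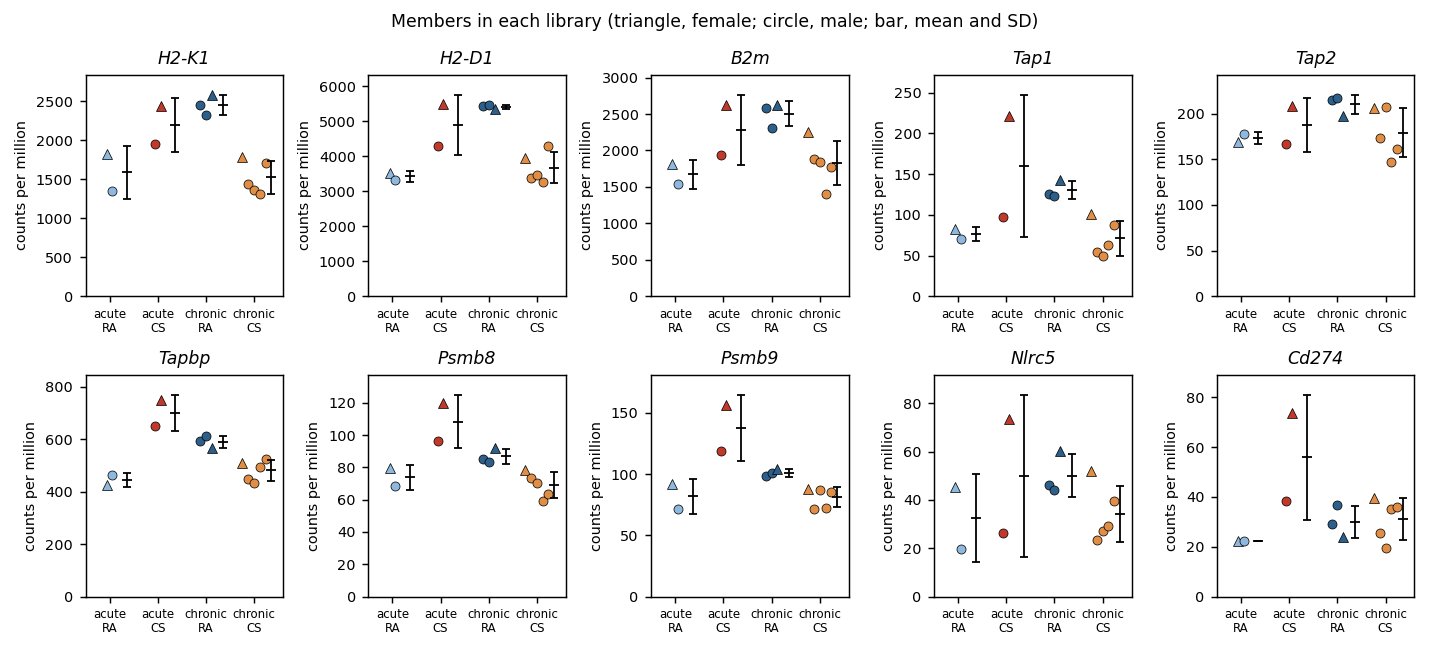
CPM of the 10 members in each library, from 0; triangles are female and circles male libraries, and the bar beside each group gives the mean and SD (n = 2, 2, 3 and 5). For H2-K1, H2-D1, B2m, Tap1, Tapbp, Psmb8 and Psmb9 all 5 chronic CS libraries lie below all 3 chronic RA libraries, and both acute CS libraries lie above both acute RA libraries.

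After acute CS the peptide-loading gene Tapbp and the proteasome subunit gene Psmb9 rose, and all 10 members had a positive log2 fold change, with a median of 0.58 against 0.04 over all genes tested. Only these 2 members passed the limit of 0.05 on the adjusted p of edgeR's quasi-likelihood test, where 2.75% of all genes tested were called higher. At an unadjusted p under 0.05, 8 of the 10 members were higher, against 10.7% of all genes. For 8 of the 10 both acute CS libraries lay above both acute RA libraries, against 27.4% of all genes. Tap2 and Nlrc5 were the exceptions in both counts.

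Tapbp measured 652 CPM (M) and 748 CPM (F) after acute CS and 462 CPM (M) and 425 CPM (F) in acute RA. Its log2 fold change was 0.66 (SE 0.13, adjusted p = 0.0195, edgeR). Psmb9, an interferon-inducible catalytic subunit that makes the immunoproteasome, measured 119 CPM (M) and 157 CPM (F) against 71.5 CPM (M) and 91.9 CPM (F). Its log2 fold change was 0.75 (SE 0.18, adjusted p = 0.0445, edgeR). Tapbp kept the call in 15 of the 20 alternative settings and Psmb9 in 6 of 20. Both lost it when acute CS F, acute RA F or acute RA M was left out, with adjusted p-values of 0.147, 0.192 and 0.163 for Tapbp and 0.361, 0.107 and 0.416 for Psmb9 in edgeR. Each of these fits leaves 1 library in an acute group, which is assumed to vary like the other groups.

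The fitted values of the heavy chains and their light chain were close to each other and short of the limit in edgeR. H2-K1 measured 1950 CPM (M) and 2437 CPM (F) after acute CS against 1350 CPM (M) and 1825 CPM (F) in acute RA, a log2 fold change of 0.47 (SE 0.19, adjusted p = 0.257, edgeR). H2-D1 measured 4280 CPM (M) and 5503 CPM (F) against 3320 CPM (M) and 3533 CPM (F), a log2 fold change of 0.51 (SE 0.15, adjusted p = 0.108, edgeR). B2m measured 1942 CPM (M) and 2624 CPM (F) against 1533 CPM (M) and 1812 CPM (F), a log2 fold change of 0.45 (SE 0.20, adjusted p = 0.316, edgeR). Without acute CS F the log2 fold changes were 0.30 for H2-K1, 0.32 for H2-D1 and 0.22 for B2m, and that of H2-K1 was 0.23 without acute RA M and 0.70 without acute RA F. In each of the 3 genes the F library of a group was above its M library. Psmb8, the other immunoproteasome subunit gene of the MHC region, had a log2 fold change of 0.55 (SE 0.17, adjusted p = 0.116, edgeR). DESeq2 called H2-D1 (adjusted p = 0.0196) and Psmb8 (adjusted p = 0.0276) but neither H2-K1 nor B2m.

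The TAP genes had unlike fitted values after acute CS, and the difference between them was not tested. Tap1 measured 97.9 CPM (M) and 222 CPM (F) against 70.4 CPM (M) and 82.7 CPM (F), a log2 fold change of 1.06 (SE 0.38, adjusted p = 0.189, edgeR). Tap2 measured 167 CPM (M) and 209 CPM (F) against 178 CPM (M) and 169 CPM (F), and its groups overlapped, with a log2 fold change of 0.12 (SE 0.18, adjusted p = 0.867, edgeR). The Tap1 value rested largely on acute CS F: without that library the log2 fold change of Tap1 was 0.36 and that of Tap2 was -0.05. Nlrc5, the class I transactivator, measured 26.1 CPM (M) and 73.6 CPM (F) against 19.7 CPM (M) and 45.4 CPM (F), and its groups overlapped, with a log2 fold change of 0.61 (SE 0.51, adjusted p = 0.677, edgeR) that turned to -0.32 without acute CS F and was 0.10 without acute RA M.

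Cd274, which encodes PD-L1, had the highest log2 fold change of the 10 members after acute CS, 1.32 (SE 0.37, adjusted p = 0.0880, edgeR). It measured 38.2 CPM (M) and 73.6 CPM (F) after acute CS and 22.3 CPM (M) and 22.4 CPM (F) in acute RA. The 2 RA libraries were nearly equal, and both lay below the 2 CS libraries. Without acute CS F the log2 fold change was 0.77, and without acute CS M it was 1.72 (adjusted p = 0.0351, edgeR), where F alone stands for acute CS and the spread comes from the other groups. With DESeq2 on all libraries Cd274 was called (adjusted p = 0.00924).

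Markers of other cells moved with the acute comparison. All 8 leukocyte markers, 4 of 10 lymphoid, 4 of 10 alveolar macrophage, 8 of 12 blood endothelial and 6 of 11 mesenchymal markers were called higher by edgeR, while 3 of 8 lymphatic markers were called lower. Mrc1, placed in the macrophage list, was called lower as well (log2 fold change -0.94, adjusted p = 0.0155, edgeR). It had the highest level of that list in acute RA, at 663 CPM (F) and 632 CPM (M), so it may not mark macrophages in these libraries. None of the leukocyte, lymphoid, macrophage or blood endothelial markers was at 0 in both libraries of an acute group, though Marco was at 0 in acute RA M and Siglecf in acute RA F. The defining leukocyte gene Ptprc measured 154 CPM (M) and 285 CPM (F) after acute CS and 19.6 CPM (M) and 19.8 CPM (F) in acute RA. Leukocytes and blood endothelium express class I genes as well. The part of these cells in the values of the members was not tested, and in bulk RNA a different number of cells of a type and a different amount of RNA per cell cannot be told apart.

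After chronic CS the class I genes lay on the other side of their controls. Of the 10 members 9 had a negative log2 fold change, with a median of -0.39 over the 10 against 0.01 over all genes tested. No member passed the adjusted limit, and neither did any of the 21440 genes (0% called in either direction by edgeR). In edgeR 2341 genes had an unadjusted p under 0.05, and DESeq2 called 524 genes, among them H2-K1 and H2-D1. At an unadjusted p under 0.05 in edgeR 7 of the 10 members were lower, against 5.35% of all genes. The same 7 members, H2-K1, H2-D1, B2m, Tap1, Tapbp, Psmb8 and Psmb9, lay lower in all 5 chronic CS libraries than in any chronic RA library, against 5.49% of all genes.

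H2-K1 measured 1789 CPM (F), 1439 CPM (M1), 1363 CPM (M2), 1308 CPM (M3) and 1710 CPM (M4) after chronic CS and 2581 CPM (F), 2447 CPM (M1) and 2316 CPM (M2) in chronic RA. The log2 fold change was -0.69 (SE 0.14, adjusted p = 0.201, edgeR). H2-D1 measured 3961 CPM (F), 3380 CPM (M1), 3472 CPM (M2), 3276 CPM (M3) and 4287 CPM (M4) against 5346 CPM (F), 5431 CPM (M1) and 5459 CPM (M2). Its log2 fold change was -0.56 (SE 0.11, adjusted p = 0.201, edgeR). The chronic RA libraries of H2-D1 were tight, with an SD of 59.1 CPM (n = 3) against 431 CPM (n = 5) after chronic CS. With DESeq2 the adjusted p was 0.00251 for H2-K1 and 0.00231 for H2-D1.

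B2m measured 2249 CPM (F), 1883 CPM (M1), 1839 CPM (M2), 1407 CPM (M3) and 1766 CPM (M4) after chronic CS against 2625 CPM (F), 2577 CPM (M1) and 2311 CPM (M2) in chronic RA. The log2 fold change was -0.45 (SE 0.15, adjusted p = 0.342, edgeR), and the highest CS library (F) lay just under the lowest RA library. Tap1 measured 101 CPM (F), 54.8 CPM (M1), 49.9 CPM (M2), 63.5 CPM (M3) and 87.1 CPM (M4) against 143 CPM (F), 126 CPM (M1) and 123 CPM (M2). Its log2 fold change of -0.88 (SE 0.27, adjusted p = 0.330, edgeR) was the lowest of the 10 members. Tap2 spanned 148 to 208 CPM after chronic CS and 198 to 217 CPM in chronic RA, and these ranges overlapped, with a log2 fold change of -0.23 (SE 0.13, adjusted p = 0.536, edgeR).

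Tapbp and the proteasome genes lay lower without overlap. Tapbp spanned 432 to 522 CPM after chronic CS and 564 to 611 CPM in chronic RA, a log2 fold change of -0.29 (SE 0.09, adjusted p = 0.333, edgeR). Psmb8 spanned 59.1 to 78.6 CPM against 83.5 to 91.8 CPM, a log2 fold change of -0.33 (SE 0.12, adjusted p = 0.386, edgeR). Psmb9 spanned 71.8 to 87.6 CPM against 98.1 to 104 CPM, a log2 fold change of -0.32 (SE 0.13, adjusted p = 0.417, edgeR). Nlrc5 spanned 23.3 to 51.8 CPM against 44.0 to 60.1 CPM and overlapped, with a log2 fold change of -0.55 (SE 0.37, adjusted p = 0.605, edgeR).

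Cd274 was the one member whose fitted value was not below its control after chronic CS. It measured 39.6 CPM (F), 25.7 CPM (M1), 19.4 CPM (M2), 35.2 CPM (M3) and 36.1 CPM (M4) against 24 CPM (F), 29.1 CPM (M1) and 36.7 CPM (M2) in chronic RA. The log2 fold change was 0.06 (SE 0.27, adjusted p = 0.958, edgeR). The libraries overlapped throughout, and the sign depended on which libraries entered. That the change of Cd274 differed from those of the class I genes was not tested.

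The chronic CS libraries M3 and M4 were sequenced about as deeply as the acute libraries (47494020 and 45436986 counts) and F, M1 and M2 less deeply (18821438 to 22885446 counts), while chronic RA held 32858543 to 36499108 counts. Within F, M1 and M2 alone the log2 fold change was -0.66 for H2-K1, -0.57 for H2-D1, -0.32 for B2m and -0.92 for Tap1. Within M3 and M4 alone it was -0.70, -0.52, -0.66 and -0.79. Against chronic RA 7 of 10 members lay lower without overlap in the former libraries (13.1% of all genes) and 9 of 10 in the latter (16.5% of all genes). Leukocyte and epithelial markers also moved with the chronic comparison, in the direction opposite to the class I genes: 8 of 8 leukocyte markers had a positive log2 fold change (4 with an unadjusted p under 0.05, no gene called by edgeR), as did 10 of 10 epithelial markers (7 with an unadjusted p under 0.05). No marker of either list was at 0 in all libraries of a chronic group, though Epcam was at 0 in chronic CS F. The summed epithelial markers were 248 to 510 CPM in chronic RA and 1172 to 5022 CPM after chronic CS. Of the 11 mesenchymal markers 8 were higher at an unadjusted p under 0.05, against 5.57% of all genes, and 6 were higher without overlap, against 3.92% of all genes, with a sum of 416 to 469 CPM in chronic RA and 555 to 875 CPM after chronic CS. Of the 10 alveolar macrophage markers 9 had a positive log2 fold change (4 with an unadjusted p under 0.05), with sums of 753 to 1066 CPM and 953 to 2405 CPM. Mrc1 alone held 560 to 597 CPM of these sums in chronic RA and 535 to 621 CPM after chronic CS. The sum of the blood endothelial markers was 6108 to 6196 CPM in chronic RA and 4982 to 5896 CPM after chronic CS, below chronic RA in all 5 libraries. Plvap and Cldn5 held most of that sum, and 10 of the 12 markers had a positive log2 fold change. At an unadjusted p under 0.05, 4 were higher and 2 lower, and without overlap 2 were higher and 0 lower. Of the 8 lymphatic markers 5 had a negative log2 fold change. The lymphoid list was split, with 5 of 10 positive. Its B cell genes Cd79a, Cd79b and Ms4a1 had log2 fold changes of -0.79, -0.79 and -1.99 (adjusted p between 0.561 and 0.671, edgeR), Cd79a and Ms4a1 without overlap. Its T cell genes Cd3e, Cd3g and Cd3d had positive values of 1.33, 1.27 and 1.98 (adjusted p between 0.314 and 0.453, edgeR), as did Trbc2 and Nkg7. The erythroid markers were negative in 5 of 5 tested, with sums of 196 to 432 CPM in chronic RA and 9.69 to 349 CPM after chronic CS. Their part in the values of the class I genes was not tested.

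**Figure D3:**
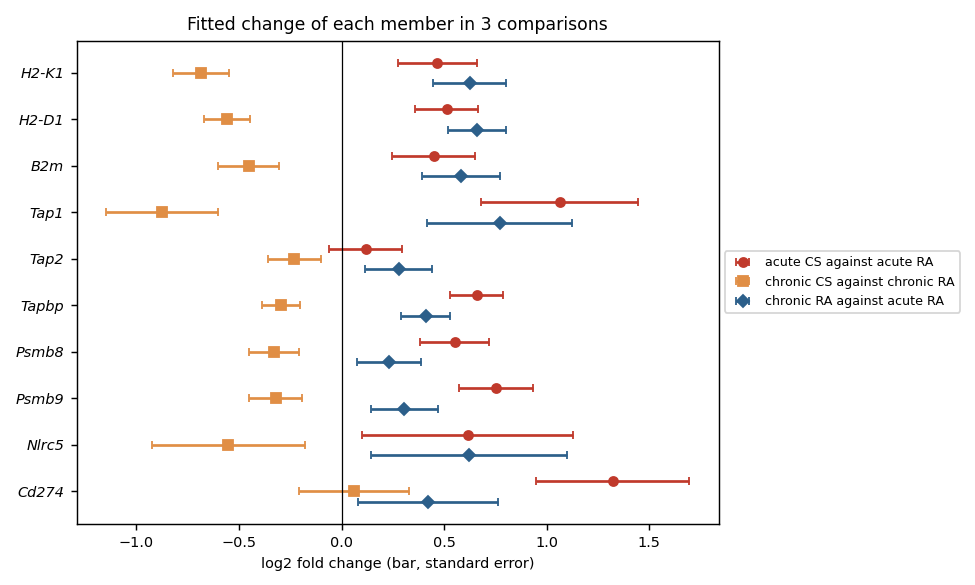
Fitted log2 fold change of each member with its standard error, for acute CS against acute RA (circles), chronic CS against chronic RA (squares) and chronic RA against acute RA (diamonds). The class I genes lie right of 0 in the acute CS and RA comparisons and left of 0 in the chronic CS one, and Cd274 lies at 1.32, 0.06 and 0.42.

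The room air controls themselves differed in level. In chronic RA all 10 members were above acute RA in the fitted value, with a median log2 fold change of 0.50 against 0.00 over all genes tested. With all 12 libraries in the fit no member and no other gene passed the adjusted limit (0% called in either direction by edgeR, where 1504 genes had an unadjusted p under 0.05, with DESeq2 calling 253 genes). DESeq2 called the members H2-D1 (adjusted p = 0.00459) and Tapbp (adjusted p = 0.0412), and edgeR called H2-D1 (adjusted p = 0.0333) when fitted to the room air groups alone. At an unadjusted p under 0.05, 4 of 10 members were higher, against 4.52% of all genes, and 9 of 10 were higher without overlap, against 17.7% of all genes. H2-D1 had a log2 fold change of 0.66 (SE 0.14, adjusted p = 0.350, edgeR), H2-K1 of 0.62 (SE 0.18, adjusted p = 0.481, edgeR), B2m of 0.58 (SE 0.19, adjusted p = 0.554, edgeR) and Tapbp of 0.41 (SE 0.12, adjusted p = 0.493, edgeR). Tap1 stood at 0.77 (SE 0.35), Nlrc5 at 0.62 (SE 0.48), Cd274 at 0.42 (SE 0.34), Psmb9 at 0.31 (SE 0.16), Tap2 at 0.28 (SE 0.16) and Psmb8 at 0.23 (SE 0.15). Without acute RA M the log2 fold change was 0.41 for H2-K1, 0.12 for Nlrc5, 0.12 for Psmb9 and 0.11 for Psmb8. Without acute RA F it was 1.34 for Nlrc5 and 0.50 for Psmb9, and without chronic RA M2 it was 0.24 for Cd274. Marker lists moved with this comparison without overlap: the epithelial sum was 248 to 510 CPM in chronic RA and 1066 and 1850 CPM in acute RA, the mesenchymal sum 416 to 469 CPM against 861 and 895 CPM, and the lymphatic sum 19495 to 22030 CPM against 14284 and 16074 CPM. The lymphoid sum was 44.9 to 83.1 CPM against 22.3 and 24.1 CPM, the erythroid sum 196 to 432 CPM against 37.7 and 69.9 CPM, and the blood endothelial sum 6108 to 6196 CPM against 5037 and 5932 CPM, all on the same side as the members. Plvap and Cldn5 held most of the blood endothelial sum. Over the 12 genes of that list the median log2 fold change was 0.07, with 2 higher and 1 lower without overlap. The B cell genes Cd79a (2.13), Cd79b (2.75) and Ms4a1 (3.27) were higher without overlap on the log2 scale (adjusted p between 0.546 and 0.770, edgeR), and the unadjusted p was under 0.05 for Cd79a and Cd79b. The T cell genes of the lymphoid list stood at 0.036 (Cd3e), -0.60 (Cd3g, lower without overlap) and -0.67 (Cd3d). Trbc2, also a T cell gene, measured 1.85 to 3.95 CPM in chronic RA and 0.549 and 2.11 CPM in acute RA, with overlap. Of the 10 lymphoid genes 8 had a positive log2 fold change, 4 of the list were higher without overlap and 1 was lower. Their part in the values of the members was not tested. These mice differ in age and in the length of the experiment, and their libraries in pooling, which cannot be told apart here. The chronic RA libraries also enter the chronic CS comparison and the acute RA libraries the acute one, so the 3 comparisons are not independent.

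Set side by side, the group means of the class I molecule were similar in acute RA and chronic CS and higher in acute CS and chronic RA. H2-K1 averaged 1587 ± 336 CPM (SD, n = 2) in acute RA, 2194 ± 344 CPM (n = 2) in acute CS, 2448 ± 133 CPM (n = 3) in chronic RA and 1522 ± 215 CPM (n = 5) in chronic CS. B2m averaged 1673 ± 197, 2283 ± 482, 2505 ± 169 and 1829 ± 301 CPM in the same order of groups. Cd274 averaged 22.4 ± 0.03, 55.9 ± 25, 29.9 ± 6.39 and 31.2 ± 8.38 CPM, a different order. The acute CS mean was the highest, with F at 73.6 CPM, while acute CS M (38.2 CPM) lay above the other group means and below chronic CS F (39.6 CPM).

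Whether the acute and the chronic effect of CS differed was tested as one contrast. The acute effect minus the chronic effect was 1.07 for H2-D1 (SE 0.19, adjusted p = 0.0406, edgeR) and 0.95 for Tapbp (SE 0.16, adjusted p = 0.0406, edgeR), and these 2 of 10 members passed the limit, against 0.401% of all genes called in the positive direction. At an unadjusted p under 0.05 8 of 10 members were positive, against 8.17% of all genes. In the same contrast edgeR called 3 of 8 leukocyte and 2 of 12 blood endothelial markers positive and 1 of 8 lymphatic markers negative. The part of these cells in the values of the members was not tested. The difference was 1.15 for H2-K1 (SE 0.24, adjusted p = 0.0657), 1.07 for Psmb9 (SE 0.22, adjusted p = 0.0657), 1.94 for Tap1 (SE 0.47, adjusted p = 0.107), 0.88 for Psmb8 (SE 0.21, adjusted p = 0.0980) and 0.90 for B2m (SE 0.25, adjusted p = 0.159), all by edgeR. For Cd274 it was 1.26 (SE 0.46, adjusted p = 0.292, edgeR), for Nlrc5 1.17 (SE 0.64, adjusted p = 0.523, edgeR) and for Tap2 0.35 (SE 0.22, adjusted p = 0.610, edgeR). The 2 calls were lost when sex was added to the fit (adjusted p = 0.0578 for both, edgeR) and when a single library was left out, except acute CS M for both and chronic CS M2 for Tapbp. H2-D1 passed in 6 of 19 and Tapbp in 7 of 19 alternative settings, with adjusted p-values of up to 0.261 and 0.243. The sign was positive for all 10 members in every alternative run, though the size was not steady. Without acute CS F the difference was 0.24 for Nlrc5, 0.72 for Cd274, 0.18 for Tap2 and 1.23 for Tap1, and that of Nlrc5 was 0.64 without acute RA M and 1.89 without acute RA F.

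Inducible proteasome subunits were next compared with the constitutive subunits they replace, as log2 ratios within each library, which do not depend on library scaling. Psmb9 replaces Psmb6, Psmb8 replaces Psmb5 and Psmb10 replaces Psmb7. The Psmb9 to Psmb6 ratio was -0.95 (M) and -0.23 (F) after acute CS and -1.67 (M) and -1.25 (F) in acute RA, a difference of 0.87 without overlap. The Psmb10 to Psmb7 ratio was 1.56 (M) and 2.003 (F) after acute CS and 1.15 (M) and 1.11 (F) in acute RA, a difference of 0.65 without overlap. The Psmb8 to Psmb5 ratio overlapped, at 0.61 (M) and 1.24 (F) against 0.33 (M) and 0.74 (F). With each acute library left out in turn the differences ranged from 0.51 to 1.23 for Psmb9 to Psmb6, from 0.43 to 0.87 for Psmb10 to Psmb7 and from 0.068 (without acute CS F) to 0.70 (without acute CS M) for Psmb8 to Psmb5. The exact two-sided permutation test gave 0.333 for the first and second ratio, which is the smallest p that 2 against 2 libraries allow, and 0.667 for the last one.

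After chronic CS the ratios lay closer to their controls. The Psmb10 to Psmb7 ratio averaged 1.23 ± 0.15 (SD, n = 5) against 1.46 ± 0.09 (n = 3) in chronic RA, a difference of -0.23 (exact permutation p = 0.0714, 0.5 after adjustment over 9 tests). The Psmb9 to Psmb6 ratio averaged -1.21 ± 0.20 against -1.09 ± 0.08 (exact permutation p = 0.321) and the Psmb8 to Psmb5 ratio 0.74 ± 0.09 against 0.78 ± 0.16 (exact permutation p = 0.643). With each chronic library left out in turn the difference ranged from -0.17 to -0.05 for Psmb9 to Psmb6. For Psmb10 to Psmb7 it ranged from -0.28 to -0.19, and for Psmb8 to Psmb5 from -0.11 to 0.046. The smallest p that 5 against 3 libraries allow is 0.0357. Between the room air groups the ratios differed by 0.37 for Psmb9 to Psmb6, 0.33 for Psmb10 to Psmb7 and 0.24 for Psmb8 to Psmb5, with exact permutation p-values of 0.2, 0.2 and 0.6, where 0.2 is the smallest possible. The difference in Psmb9 to Psmb6 was 0.16 without acute RA M and 0.58 without acute RA F. That in Psmb8 to Psmb5 was 0.038 without acute RA M, 0.45 without acute RA F and 0.15 without chronic RA F. No ratio passed the limit after adjustment. Psmb5 and Psmb6 themselves lay lower in all chronic CS libraries than in any chronic RA library, by log2 fold changes of -0.29 and -0.20 (adjusted p = 0.456 and 0.482, edgeR).

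The TAP pair, whose ratio was computed after its values were seen and is given with no test, showed a wider spread. The log2 ratio of Tap1 to Tap2 in CPM was -0.77 (M) and 0.09 (F) after acute CS, -1.34 (M) and -1.03 (F) in acute RA, and -0.47 (F), -0.77 (M1) and -0.82 (M2) in chronic RA. After chronic CS it was -1.03 (F), -1.66 (M1), -2.06 (M2), -1.22 (M3) and -0.89 (M4), below all 3 chronic RA libraries. The H2-K1 to B2m ratio varied far less, with group means of -0.09, -0.05, -0.03 and -0.26 for acute RA, acute CS, chronic RA and chronic CS. The H2-K1 to H2-D1 ratio had group means of -1.13, -1.15, -1.15 and -1.28 in that order.

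**Figure D4:**
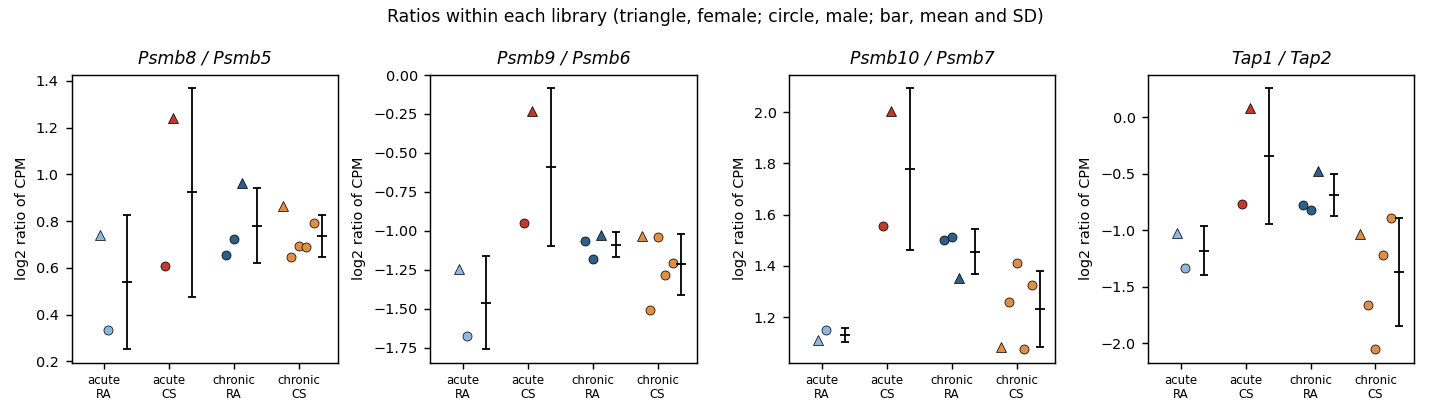
Log2 ratio of CPM within each library for the 3 pairs of inducible and constitutive proteasome subunits and for Tap1 to Tap2; triangles are female and circles male libraries, and the bar gives the mean and SD of the group (n = 2, 2, 3 and 5). For Psmb9 to Psmb6, Psmb10 to Psmb7 and Tap1 to Tap2 both acute CS libraries lie above both acute RA libraries, and for Tap1 to Tap2 all 5 chronic CS libraries lie below all 3 chronic RA libraries.

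Female libraries stood above male libraries of the same group for much of the pathway. This was looked at after the values were seen. For H2-K1, B2m, Tap1, Psmb8, Psmb9 and Nlrc5, 6 of the 10 members, the F library was the highest of its group in all 4 groups, which held for 1.47% of all genes tested. Nlrc5 measured 45.4 CPM (F) and 19.7 CPM (M) in acute RA, 73.6 CPM (F) and 26.1 CPM (M) in acute CS, 60.1 CPM (F) against 44.0 and 46.1 CPM in chronic RA, and 51.8 CPM (F) against 23.3 to 39.4 CPM in chronic CS. In the edgeR fit with a sex term Nlrc5 was higher in F by 0.93 on the log2 scale, Tap1 by 0.56, B2m by 0.29, H2-K1 by 0.28, and Psmb8 and Psmb9 by 0.22 each, and these 6 had an unadjusted p under 0.05. H2-D1 (0.13), Tap2 (0.10), Tapbp (0.02) and Cd274 (0.23) did not reach that limit. No member passed the adjusted limit, which 1 of all genes tested did, and 1.44% of all genes were higher in F at an unadjusted p under 0.05. F made up 1 of 2 libraries in each acute group, 1 of 3 in chronic RA and 1 of 5 in chronic CS, so the share of F libraries moved with the chronic comparison. With the sex term in the fit the chronic log2 fold change was -0.65 for H2-K1 (SE 0.10, adjusted p = 0.165, edgeR), -0.54 for H2-D1 (SE 0.11, adjusted p = 0.254, edgeR), -0.42 for B2m and -0.83 for Tap1.

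**Figure D5:**
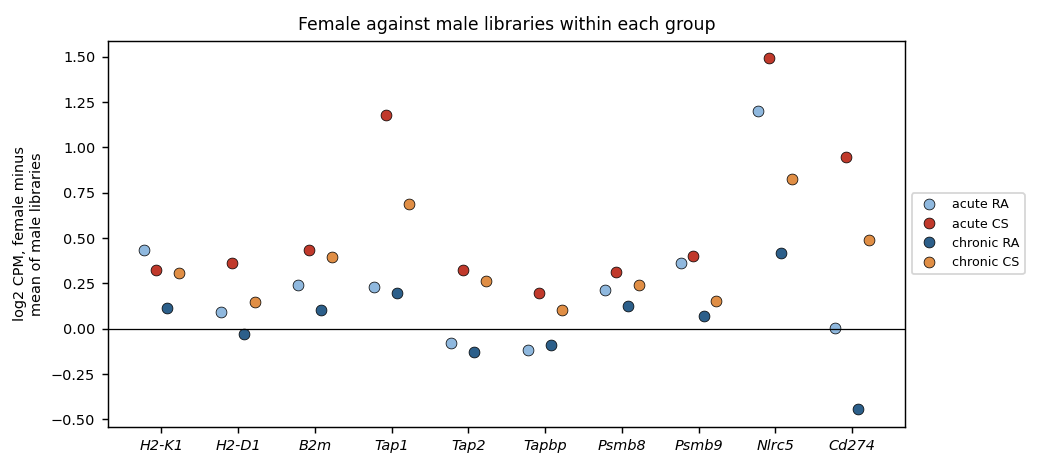
Difference in log2 CPM between the female library and the mean of the male libraries of the same group, for each member in each of the 4 groups. The 4 points of H2-K1, B2m, Tap1, Psmb8, Psmb9 and Nlrc5 all lie above 0, and Nlrc5 ranges from 0.42 to 1.49.

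Among 16 further genes of peptide supply and loading, the inducible proteasome subunit gene Psmb10 alone was called after acute CS, where edgeR called 2.75% of all genes higher and 0.723% lower. It measured 127 CPM (M) and 163 CPM (F) against 97.3 CPM (M) and 76.8 CPM (F), a log2 fold change of 0.73 (adjusted p = 0.0377, edgeR). The other 15 were not called in either direction, with Calr, a chaperone of the loading complex, at -0.53 and the peptide-trimming enzyme Erap1 at 0.48. For acute CS the list had a median log2 fold change of 0.01. After chronic CS 15 of the 16 had a negative log2 fold change with a median of -0.24, none was called, and 7 lay lower without overlap, against 5.49% of all genes. The tapasin homologue Tapbpl stood at -0.44, the proteasome activator gene Psme3 at -0.43 and the loading chaperone Pdia3 at -0.39. Between the room air groups the list's median was -0.03, with the peptidase gene Blmh at -0.41, Pdia3 at 0.36 and the chaperone gene Canx at 0.35. In the acute minus the chronic effect the median was 0.16, with Psmb10 at 0.98, Tapbpl at 0.75 and Erap1 at 0.51, and none was called.

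Of 19 other class I and class I-like heavy chain genes, Hfe, whose product binds beta-2 microglobulin and takes part in iron sensing, was the one called after acute CS, at 100 CPM (M) and 123 CPM (F) against 59.7 CPM (M) and 54.2 CPM (F), with a log2 fold change of 0.97 (adjusted p = 0.0136, edgeR), against 2.75% of all genes called higher. The list's median was 0.26 after acute CS and -0.33 after chronic CS, where 17 of 19 were negative, 6 lay lower without overlap (5.49% of all genes) and none was called. The median was 0.33 between the room air groups and 1.07 in the acute minus the chronic effect. The Qa-2 genes H2-Q6 and H2-Q7, named after their values were seen, had log2 fold changes of 1.03 and 1.05 after acute CS, -1.11 and -0.97 after chronic CS and 1.5 and 1.32 between the room air groups (adjusted p between 0.251 and 0.546, edgeR). They are near copies of each other, so their separate values are uncertain. H2-Q4 stood at -1.44 after chronic CS and spanned 11.2 to 21.3 CPM against 26.1 to 70.3 CPM. H2-Q1 and H2-Q2 stayed below 1 CPM in the group means, with log2 fold changes of -2.32 and -2.14 after chronic CS that rest mainly on chronic RA F. H2-M2 held 1 and 0 counts in acute RA, below the floor of 3 counts, and 3.82 CPM (M) and 3.71 CPM (F) after acute CS. Cd1d2, whose product is a class I-like molecule, stood at 2.73 after acute CS (SE 0.89, adjusted p = 0.144, edgeR), from group means of 0.411 CPM in acute RA and 2.74 CPM in acute CS.

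Of 23 regulators of class I and of interferon signalling, Irf8, an interferon regulatory factor, was called lower after acute CS, at 140 CPM (M) and 134 CPM (F) against 234 CPM (M) and 220 CPM (F), with a log2 fold change of -0.73 (adjusted p = 0.00856, edgeR), against 0.723% of all genes called lower. None was called higher. Irf1, an interferon-induced activator of class I genes named after its values were seen, measured 179 CPM (M) and 316 CPM (F) against 164 CPM (M) and 149 CPM (F), a log2 fold change of 0.66 (adjusted p = 0.144, edgeR). The list's median was 0.06 after acute CS and -0.11 after chronic CS. The class II transactivator Ciita stood at 2.84 after acute CS and at 1.31 between the room air groups. Ifng itself was low, at a mean of 0.127 CPM in acute RA and 0.65 CPM in acute CS. After chronic CS Irf8 stood at -0.54 and the interferon gamma receptor gene Ifngr2 at -0.51, and both lay lower without overlap. Between the room air groups the median was 0.09, with Nfya at 0.53. The median of the acute minus the chronic effect was 0.23, with Ciita at 2.58 (SE 1.31), Ifngr2 at 0.84 (SE 0.19) and Irf1 at 0.73 (SE 0.27), and none was called.

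Among 17 partners of PD-L1 and other checkpoint genes, of which 16 were tested, Icosl was called higher and Nectin2 lower after acute CS, against 2.75% and 0.723% of all genes. Icosl, the ligand of ICOS, measured 27.1 CPM (M) and 19.7 CPM (F) against 5.66 CPM (M) and 4.73 CPM (F), a log2 fold change of 2.17 (adjusted p = 0.00846, edgeR). Nectin2, a ligand of TIGIT, measured 307 CPM (M) and 150 CPM (F) against 560 CPM (M) and 499 CPM (F), a log2 fold change of -1.21 (adjusted p = 0.0243, edgeR). The second ligand of PD-1, Pdcd1lg2, stayed at group means between 0.261 and 1.29 CPM, far below Cd274. Havcr2 stood at 4.09 after acute CS but was not called (SE 2.40, adjusted p = 0.478, edgeR), with acute RA at 0 CPM (M) and 1.94 CPM (F). The list's median was 0.54 after acute CS, -0.23 after chronic CS and 0.08 between the room air groups. After chronic CS none was called, with Btla at -1.47 (SE 1.06), Cd276 at -0.97 (SE 1.01) and Cd80 at -0.82 (SE 1.01), all with overlap. Icosl, at 0.60 (SE 0.25, adjusted p = 0.430, edgeR), lay higher without overlap, against 3.92% of all genes. Nectin2 and Cmtm6 lay lower without overlap, against 5.49% of all genes. Between the room air groups Tnfrsf14 stood at -0.97 (SE 0.54), Btla at 0.69 (SE 1.37) and Cd86 at -0.61 (SE 1.18), and none was called. The median of the acute minus the chronic effect was 0.72 and none was called. Btla stood at 3.79 (SE 1.89), Havcr2 at 3.74 (SE 2.74) and Cd80 at 3.56 (SE 1.76), all of them below 20 CPM in the group means.

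For each member the genes with the most similar profile over the 12 libraries were found among the 9982 genes whose log2 CPM averaged 3 or more. Likeness was the root mean square difference of log2 CPM after centring each gene, so that small values mean alike, and it describes these libraries only, which also share depth and cell makeup. H2-K1 and H2-D1 were closer to each other (0.12) than to any gene outside the members, with St3gal5 next for both (0.15 and 0.13). Psmb8 and Psmb9 differed by 0.12, about as little as Psmb8 from Litaf (0.12) and Psmb9 from Spats2 (0.14). The genes nearest to Tap1 were H2-Q5 (0.26) and Gbp3 (0.28), and those to Nlrc5 were Gbp3 (0.27) and H2-Q7 (0.28). B2m was nearest to the member H2-D1 (0.15) and, outside the members, to Esrra (0.16) and Tmco6 (0.17), Tap2 to Pwwp2a (0.10) and Mcts2 (0.11), and Tapbp to Syngr2 (0.09) and Pecam1 (0.10). Cd274 had no member closer than Tapbp at 0.34, and its nearest genes were Megf9 (0.23) and Ahr (0.24). The other second neighbours were Mettl9 for H2-K1, Gbp2 for H2-D1, Ifngr2 for Psmb8 and Prkch for Psmb9.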

How the data were processed

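RNA of sorted lung LECs had been amplified with SMART-Seq v4 and made into Nextera XT libraries. The authors trimmed the reads with Skewer and aligned them to GRCm38 with STAR, whose gene counting mode takes uniquely mapped reads only, and the deposited values are raw read counts per Ensembl gene, with no normalization. Neither the strand setting nor the release of the annotation is given in the sources used here.

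Counts were fitted in R 4.3.3 with edgeR 4.0.16 (all 12 libraries by group, TMM factors, filterByExpr, quasi-likelihood F-test, Benjamini-Hochberg over 21440 genes, limit 0.05). CPM used TMM factors, and log2 CPM a prior count of 2. FPKM divided CPM by exon length from GENCODE M21, which named 52489 of 52636 identifiers. A floor of 3 counts is 0.0507 to 0.158 CPM, for counting error only. DESeq2 1.42.0 was an alternative. The fits were tested on simulated data. Ratios used exact two-sided permutation tests, adjusted over 9 tests.

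The members, gene lists and tests were chosen with earlier results of these data known. By rule the text names all members, for each of the 4 pathway lists the called genes or those with the largest changes (up to 3 per comparison), leading cell markers, and the 2 genes nearest to each member. The cell type lists were leukocyte, lymphoid, alveolar macrophage, blood endothelium, alveolar epithelium, mesenchyme, erythroid and lymphatic endothelium. The erythroid list had 0 called genes in edgeR in every comparison, and Slc4a1 was at 0 in acute RA and in both chronic groups.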

Additional observations from a re-analysis of the deposited data

Results flagged for a closer look

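The acute effect of CS minus its chronic effect passed the limit of the edgeR test of that difference for 2 members. It was 1.07 on the log2 scale for H2-D1, from a log2 fold change of 0.51 after acute CS and of -0.56 after chronic CS. For Tapbp it was 0.95, from 0.66 and -0.29. The room air groups enter this difference, and chronic RA lay above acute RA by 0.66 for H2-D1 and 0.41 for Tapbp. A difference between the controls and one in the response to CS cannot be told apart here. The calls held in 6 of 19 alternative settings for H2-D1 and in 7 of 19 for Tapbp. In both genes each acute CS library lay above each acute RA library, which held for 27.4% of all genes. Each chronic CS library lay below each chronic RA library, which held for 5.49% of all genes. Both genes were picked by a contrast of these same libraries, so the separation is no further evidence. The leukocyte and blood endothelial marker sums, which were highest in the 2 acute CS libraries, moved with the acute side of this difference. In the same contrast edgeR called 3 of 8 leukocyte and 2 of 12 blood endothelial markers positive, against 0.401% of all genes. The leukocyte ones were Coro1a (3.41, adjusted p = 0.0290), Rac2 (3.51, adjusted p = 0.0395) and Lcp1 (3.29, adjusted p = 0.0471). It called 1 of 8 lymphatic markers negative, against 11 of 21440 genes. No lymphoid gene was called in this contrast, and that list was positive in 10 of 10 genes after acute CS and in 5 of 10 after chronic CS. Its T cell genes Cd3e, Cd3g and Cd3d were positive on both sides (1.33, 1.27 and 1.98 after chronic CS), and its B cell genes Cd79a, Cd79b and Ms4a1 had the signs of H2-D1 and Tapbp: Cd79a was at 2.81 after acute CS and -0.79 after chronic CS (difference 3.602, adjusted p = 0.0971, edgeR), Cd79b at 3.76 and -0.79 (4.54, adjusted p = 0.112) and Ms4a1 at 4.12 and -1.99 (6.10, adjusted p = 0.388). The part of these cells in the difference was not tested. Of 13 series of 5 chronic CS values examined for a sample far from the others (10 members and 3 ratios), 0 held one, where chance gives about 1 in 20. The acute groups were not examined, as 2 libraries cannot show which of them is far off. The check therefore says nothing of the acute libraries in this difference.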

How the results depend on the processing

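Adding a replicate block for the shared labels (F, M, M1, M2) gave 73 genes and 0 members called after acute CS, 0 and 0 in the difference of effects, and a chronic Cd274 log2 fold change of -0.13. Over all genes same-labelled libraries did not deviate together from their group means (r between -0.04 and 0.07). In acute groups of 2 libraries the F and M deviations mirror each other, so both acute values are the same r. F and M also give the sex, and F was the highest library in all 4 groups for 6 of 10 members. Whether the labels pair samples therefore cannot be told from r. The block changed no other sign or count. With the main settings edgeR called 745 genes and 2 members after acute CS, 0 and 0 in the chronic and room air comparisons, and 97 and 2 in the difference of effects. The same counts were 1926 and 5, 524 and 2, 253 and 2, and 916 and 7 with DESeq2, 10 genes (chronic), 6 genes (room air) and 191 genes (difference) with no filter, where the acute count of members was 1. Scaling by library size alone left 1 member after acute CS. Fitting only the groups compared gave 139 genes and 0 members (acute) and 42 genes and 1 member (room air). With sex as a covariate 21 genes and 0 members were called in the difference. Chronic CS F, M1 and M2 alone gave 1 gene and a Cd274 value of -0.070, and M3 and M4 alone gave 16 genes.

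Leaving out each library in turn gave 3 to 973 genes and 0 to 5 members after acute CS, 0 to 4 genes after chronic CS, 0 to 2 genes between the room air groups, and 0 to 263 genes and 0 to 5 members in the difference. The acute range ran from -0.054 to 0.27 for Tap2 and from -0.32 to 1.34 for Nlrc5, the chronic range of Cd274 from -0.066 to 0.24, and the chronic Psmb8 to Psmb5 difference from -0.11 to 0.046. The sign of every other member held in all settings tried. The cause of these shifts was not tested. Without acute RA M 3 genes were called after acute CS, against 745 with it.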
